A study of Mus musculus with 6 samples.

Results

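The nuclear genes for the 5 complexes of oxidative phosphorylation were compared between c-Kit+ APL progenitors and normal myeloid progenitors (MPs) of mouse bone marrow. Members were taken by gene symbol, as all names that begin with Nduf and a subunit letter and number (complex I), the 4 Sdh genes (complex II), names that begin with Uqc (complex III), names from Cox4 to Cox8 (complex IV) and names that begin with Atp5 (complex V). This gave 82 of the 16440 genes in the deposited table, of which 37 belong to complex I, 4 to complex II, 9 to complex III, 15 to complex IV and 17 to complex V. The symbols also brought in Uqcc, an assembly factor of complex III, and Atp5s and Atp5sl, which are not subunits of the ATP synthase. Ndufa4, kept here with complex I for its name, has since been placed in complex IV. The MP group was 3 libraries of normal Lin-Sca-1-c-Kit+ bone marrow cells, and the APL group was 3 libraries of GFP-labelled c-Kit+ leukemia cells, all from the FVB N/J strain. The leukemia came from mice that carry human PML/RARα under the myeloid MRP8 promoter, and the cells were marked with a GFP retrovirus and grown in syngeneic recipients before the sort. Neither group was described as drug-treated, only the APL cells had gone through transplantation, and the labels give no age for the mice (the study's methods describe young adult recipients for its transplantations). The labels name 3 biological replicates per group without saying that each came from its own mouse, so p-values measure the spread between these samples, which may in part be technical.

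Oxidative phosphorylation passes electrons from NADH through complex I, or from succinate through complex II, to ubiquinone, and on through complex III, cytochrome c and complex IV to oxygen. Complexes I, III and IV pump protons across the inner mitochondrial membrane, and complex V, the ATP synthase, uses the gradient to make ATP. Most subunits are encoded in the nucleus. A small core of complexes I, III, IV and V is encoded by mitochondrial DNA. Its 13 genes were searched for by name, none was found in the deposited table, and they were not analysed here. Myeloid progenitors and leukemia cells both contain these complexes, and their balance with glycolysis is a known difference between resting and dividing blood cells.

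Values are scaled fragments, the estimated RNA-seq fragments of a gene after the scaling of each library in the deposited table, and log2 fold changes are APL minus MP on log2(scaled fragments + 1), so that they understate the change of genes with few fragments. Undoing that scaling with a step inferred from the values of each library gave totals between 20608715 and 28382785 fragments. Kit, the receptor that defined both sorts, was present in all 6 libraries, with 10668 ± 272 scaled fragments in MPs and 5929 ± 132 in APL (SD, n = 3). It was lower in APL without overlap of the groups (-0.85, adjusted p = 5.89e-06 by limma). Ly6a, which encodes Sca-1, had 27.2 ± 7.09 in MPs and 43.4 ± 4.99 in APL, a rise at a low level (0.68, adjusted p = 0.0434 by limma). Marker genes of blood lineages differed between the 2 groups. All 10 erythroid markers tested fell in APL, and their summed value, counting 12 genes, went from between 63888 and 84295 in MP libraries to between 306 and 447 in APL, with the erythroid factor Klf1 from between 2805 and 3726 to between 13.0 and 17.3. Megakaryocyte markers fell for 5 of 6, lymphoid markers for 5 of 7, monocyte and dendritic markers for 4 of 8 with 2 that rose, and mast cell and basophil markers for 3 of 5 with 1 that rose, whereas granulocyte markers rose for 6 of 12 and fell for 2. The part of these markers in the changes below was not tested, and in bulk libraries a change in cell types cannot be told apart from a change of RNA per cell.

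MP library 3 stood apart from MP 1 and MP 2. It was the highest MP library for 80 of the 81 members tested, with a median of 0.30 above its group mean on the log2 scale against -0.17 and -0.14 for the others. The same deviation followed transcript length, which was estimated from the ratio of scaled fragments to FPKM. Over the 10389 genes with higher mean values, the deviation went from 0.28 in the shortest decile of genes to -0.17 in the longest. Most members are short, and 58 of 81 lay in the shortest decile of the genes tested. APL 3 was the highest APL library for 59 of 81 members, with a median deviation of 0.09. The main counts and medians are therefore also given without MP 3, as are the values of the genes that turn on it.

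**Figure D1:**
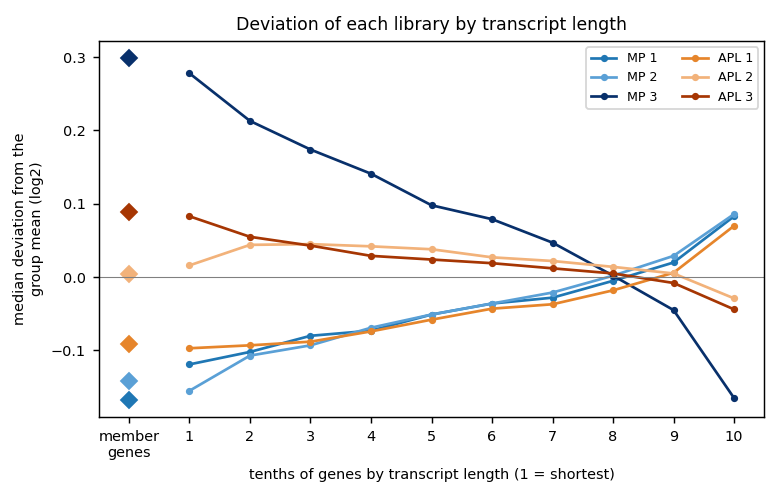
Median deviation of each library from its group mean (log2, vertical axis) by decile of estimated transcript length (horizontal axis). The deciles hold the 10389 genes with higher mean values, and the member genes are diamonds at the left. MP 3 falls from 0.28 in the shortest decile to -0.17 in the longest, and its member diamond is at 0.30.

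Of the 82 members, 81 passed the filter of at least 1 scaled fragment in at least 3 libraries. The exception was Ndufa4l2, a hypoxia-induced relative of Ndufa4, with 0.94, 0.95 and 0 scaled fragments in MPs and 0, 0.87 and 2.47 in APL. By limma, fitted over all 14595 genes tested with Benjamini-Hochberg adjustment, 31 members (38.3%) fell in APL at adjusted p under 0.05, beside 37.3% of all genes. Only 7 members (8.64%) rose, beside 29.7% of all genes. With a fold change over 1.5 as well, 12 members (14.8%) fell, beside 24.4% of all genes, and 3 (3.70%) rose, beside 21.7%. The 3 APL libraries lay below all 3 MP libraries for 35 members (43.2%), beside 39.8% of all genes, and above them for 4 members (4.94%), beside 31.1%. The share of members that fell was thus near the background, and the shares that rose or that fell beyond 1.5-fold were below it. The median log2 fold change was -0.26 over the members and -0.10 over all genes.

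Without MP 3, 29 members fell and 15 rose, among them 29 of the 31 and all 7 named by all libraries. The medians were then -0.10 for members and -0.04 for all genes, and with the 1.5-fold threshold 6 members fell and 7 rose. That -0.04 is over the 14068 genes that passed the filter without MP 3, and over the 14595 genes tested before it was -0.07. Members that fell were 81.6% of all members called with every library, beside 55.6% over all genes called. Without MP 3 the 2 shares were 65.9% and 51.3%. After the length trend was taken out of each library, an alternative added after the data were seen, 41 members fell and 15 rose, a share of 73.2%, and over all genes the share of falls among calls went from 55.6% to 43.8%. Across 19 alternatives, 18 of the 31 members that fell and 4 of the 7 that rose kept their call in every one. The member genes by library are shown in the heat map, and their fold changes by complex in the plot that follows it.

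**Figure D2:**
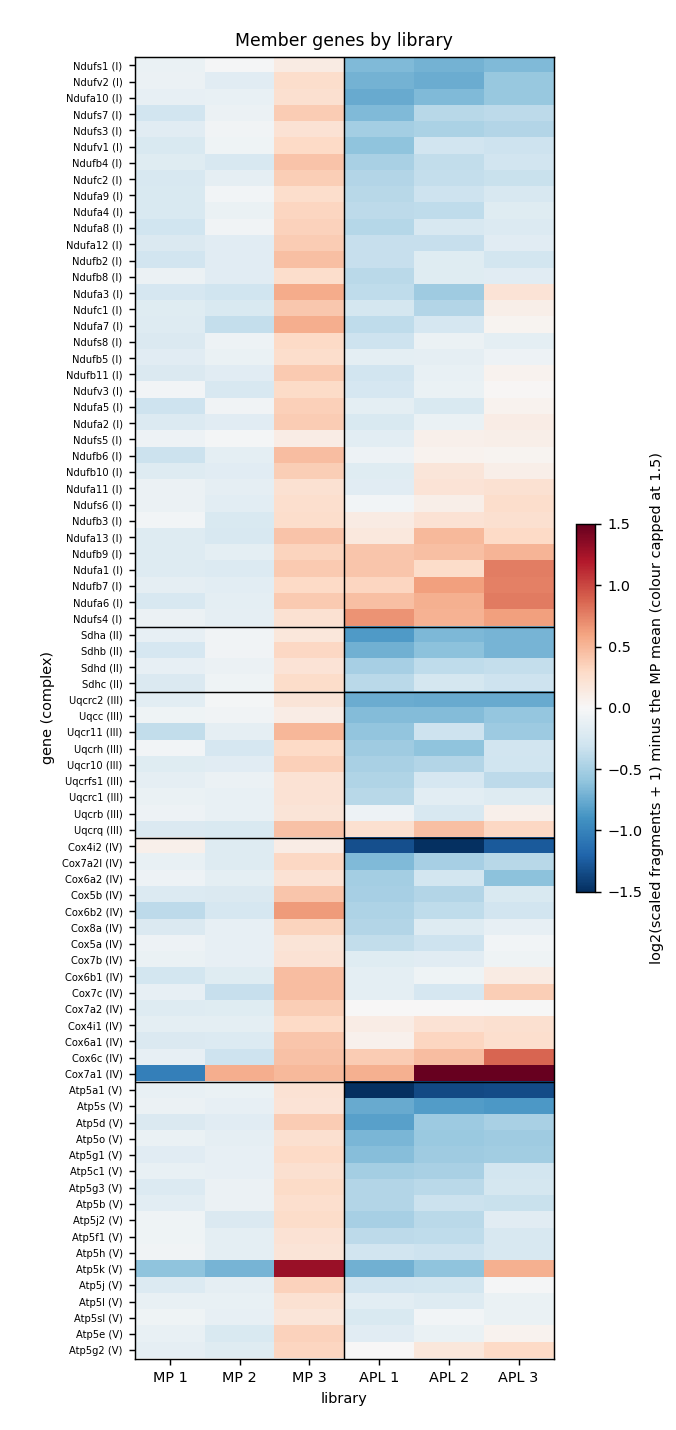
The tested members apart from 1 of complex I (rows, grouped by complex I to V) in the 6 libraries (columns), as log2(scaled fragments + 1) minus the mean of the MP libraries, with colour capped at 1.5. MP 3 is the warmest MP column for nearly every row, and the strongest blue among abundant genes is Atp5a1 in the APL columns.

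**Figure D3:**
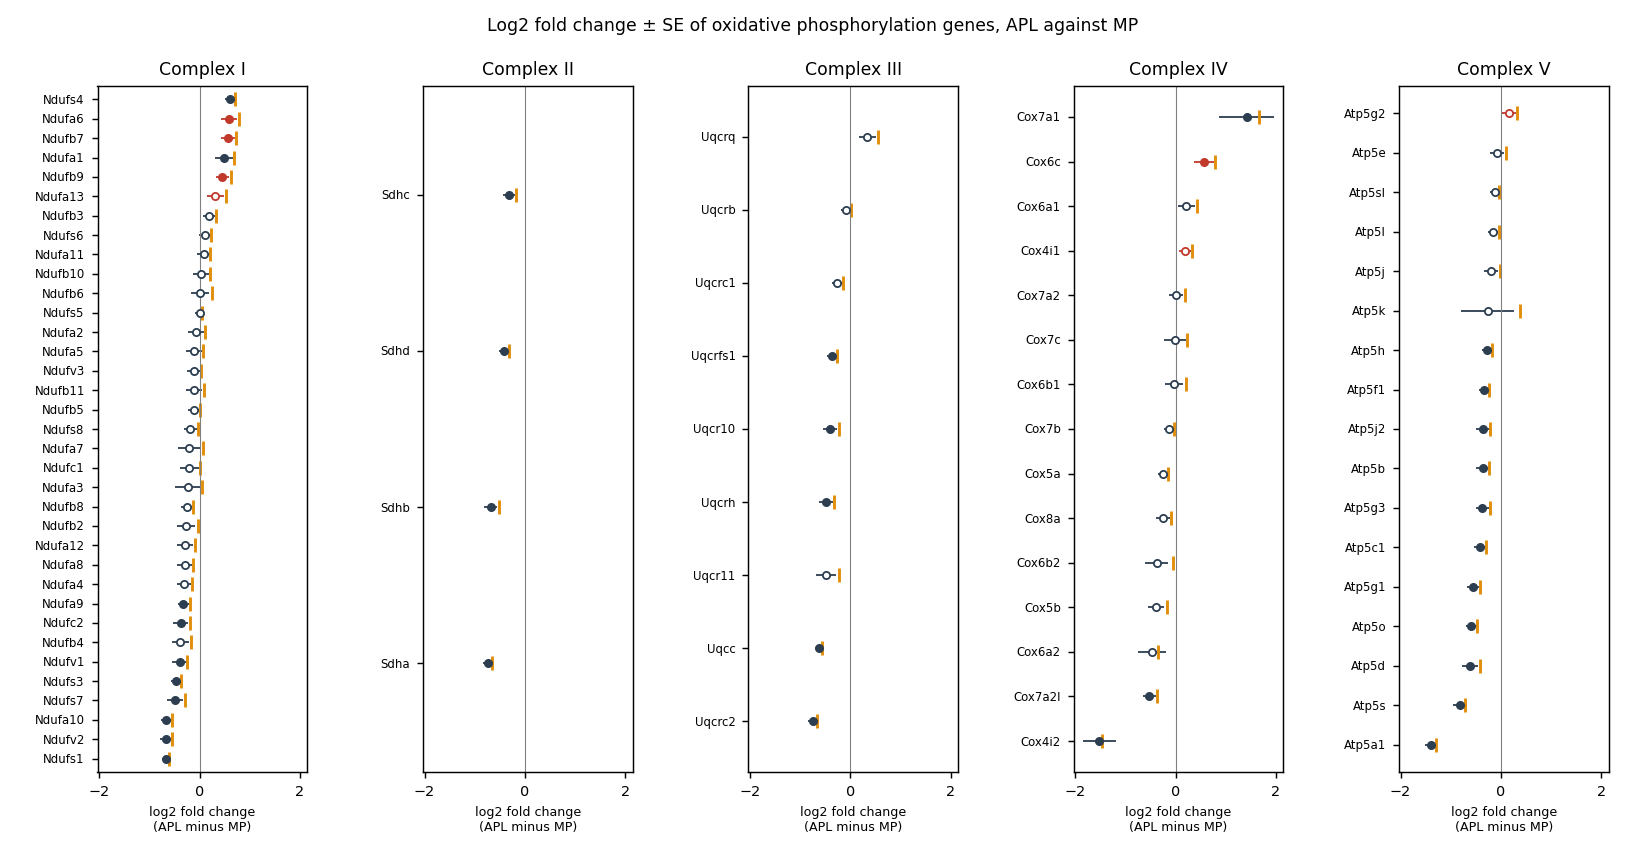
Log2 fold change with its SE (horizontal axis, APL minus MP) for the tested members by complex, apart from 1 of complex I, filled where adjusted p was under 0.05 and red for genes on chromosomes 8 and 15. The orange ticks are the values without MP 3, and all 4 genes of complex II and 11 of 17 of complex V carry filled points left of 0.

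Of all genes tested, 37.3% fell and 29.7% rose, which is the background for the counts by complex. In complex I, which oxidises NADH, 9 of 36 tested genes fell (25%), 5 rose (13.9%) and 22 passed in neither direction. The median of these 36 genes was -0.19. The sum of their FPKM, a value per length of transcript, was 4577 ± 621 in MPs and 4429 ± 220 in APL, and without MP 3 the MP mean was 4227, below that of APL. In the main fit the falls were mostly in the core, the subunits shared with bacterial enzymes that bind the flavin and the iron-sulfur clusters. There 6 of 7 fell and none rose, with a median of -0.48. Among the other 29 subunits 3 fell and 5 rose, with a median of -0.11. The core genes are longer, with a median at the 20.04 percentile of transcript length against 1.78 for the rest, and the part of length in this difference was not tested. Without MP 3 the same counts were 6 and 0 for the core and 2 and 8 for the rest, and the median of the whole complex turned to 0.02. The log2 fold changes of single genes also shrank or grew without it, to -0.62 for Ndufs1, -0.54 for Ndufv2, -0.55 for Ndufa10, -0.37 for Ndufs3, -0.30 for Ndufs7 and -0.25 for Ndufv1, and to 0.71 for Ndufs4, 0.79 for Ndufa6 and 0.72 for Ndufb7. With the length trend removed, the core genes Ndufv2, Ndufs1, Ndufs7, Ndufs3, Ndufv1 and Ndufs8 were at -0.59, -0.45, -0.42, -0.40, -0.34 and -0.11. Outside the core Ndufb4, Ndufa4, Ndufa8, Ndufa12 and Ndufb8 then also fell, and Ndufb3, Ndufa13, Ndufa11 and Ndufs6 rose. Scaled to the same total, Ndufb4, Ndufa4, Ndufa8, Ndufa12, Ndufb8, Ndufb2, Ndufb5 and the core gene Ndufs8 were added to the falls. In both fits most falls of the complex lay outside the core.

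Ndufs1, which carries iron-sulfur clusters on the path from flavin to ubiquinone, had 4118, 4370 and 4820 scaled fragments in the MP libraries and 2790, 2715 and 2792 in APL. The APL values were tightly grouped and none reached the lowest MP value, a log2 fold change of -0.68 (SE 0.07, adjusted p = 4.97e-05). Ndufs1 (gene 227197) lies on chromosome 1 from 63114470 to 63176822 on GRCm38, where the table places the gene Gm11602 over part of it. Ndufv2, of the NADH-binding tip, went from 2522, 2381 and 3208 to 1641, 1600 and 1811 (-0.67, SE 0.11, adjusted p = 0.00072). The flavin-binding Ndufv1 fell by 0.40 on the log2 scale (adjusted p = 0.0325), with a call that was lost without APL 1 (adjusted p = 0.11). Of the arm that leads to ubiquinone, Ndufs3 fell by 0.48 (adjusted p = 0.00248) and Ndufs7 by 0.49 (adjusted p = 0.024, and 0.081 without APL 1). Ndufs8, which also holds clusters, was the core gene that did not pass, with a log2 fold change of -0.18 (adjusted p = 0.248).

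Outside the core, Ndufa10 fell most, from 2590, 2608 and 3335 scaled fragments to 1667, 1781 and 1897 (-0.67, SE 0.11, adjusted p = 0.000538). Ndufc2 and Ndufa9 fell by 0.38 and 0.32, with calls that were lost when any 1 APL library was left out for Ndufc2, and without MP 2, MP 3, APL 1 or APL 2 for Ndufa9. Ndufs4, an accessory subunit whose loss in humans causes Leigh syndrome, had the largest rise of complex I. Its values were 1558, 1516 and 1944 in MPs and 2645, 2387 and 2538 in APL, without overlap (0.60, SE 0.10, adjusted p = 0.000738). Ndufs4 (gene 17993) lies on chromosome 13 from 114287794 to 114388094. Ndufa6, a subunit of the LYR family, rose from 1080, 1153 and 1682 to 1753, 1856 and 2188 (0.59, SE 0.16, adjusted p = 0.0107). Ndufb7, of the membrane arm, rose from 1293, 1273 and 1756 to 1778, 2192 and 2412 (0.57, SE 0.15, adjusted p = 0.00826). In both genes the lowest APL value only just passed MP 3. Ndufb9 rose by 0.46 and Ndufa1 by 0.48, the latter with overlapping groups and no call when any of MP 1, MP 2, APL 1 or APL 3 was left out.

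Within a library, the FPKM ratio of Ndufs4 to Ndufs1 was 0.735, 0.677 and 0.789 in MPs and 1.85, 1.71 and 1.73 in APL. The groups were far apart, and a two-sided exact permutation test gave p = 0.1 (adjusted p = 0.15 over the 6 ratios compared), the smallest value that 3 against 3 libraries allow. The promoters of 3 complex I genes that changed and of the catalytic pair of complex II are printed to show the proximal sequence, since factors of the NRF1, GABP (ETS) and YY1 families are known regulators of these genes. They are the RefSeq windows on GRCm38.p6 from 250 bases before to 50 after the first listed start, 5′ to 3′ on the gene's strand, with capitals for the letters of NRF1 core GCATGCGC, ETS core CCGGAAG or YY1 core AAGATGGC on either strand. Ndufs4 holds the YY1 letters (chr13:114388045-114388344, minus strand), Ndufs3 the ETS letters on both strands (chr2:90904672-90904971, minus strand), and Ndufa6 the NRF1 letters (chr15:82354242-82354541, minus strand). Sdhb, whose product carries the iron-sulfur clusters of complex II, holds the NRF1 and the ETS letters (chr4:140961021-140961320, plus strand), and Sdha holds none of the 3 (chr13:74350191-74350490, minus strand).
Ndufs4: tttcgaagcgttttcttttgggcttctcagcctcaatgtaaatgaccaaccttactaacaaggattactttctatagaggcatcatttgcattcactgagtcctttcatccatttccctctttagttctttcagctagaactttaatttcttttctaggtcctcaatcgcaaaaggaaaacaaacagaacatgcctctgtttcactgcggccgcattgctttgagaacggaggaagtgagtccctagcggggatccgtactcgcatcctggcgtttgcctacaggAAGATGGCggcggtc
Ndufs3: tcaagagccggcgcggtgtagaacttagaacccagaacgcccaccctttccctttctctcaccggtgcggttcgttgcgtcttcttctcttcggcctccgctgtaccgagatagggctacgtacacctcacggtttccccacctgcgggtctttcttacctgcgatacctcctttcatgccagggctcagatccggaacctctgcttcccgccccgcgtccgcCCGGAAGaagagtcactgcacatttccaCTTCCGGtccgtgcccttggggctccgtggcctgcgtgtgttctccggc
Ndufa6: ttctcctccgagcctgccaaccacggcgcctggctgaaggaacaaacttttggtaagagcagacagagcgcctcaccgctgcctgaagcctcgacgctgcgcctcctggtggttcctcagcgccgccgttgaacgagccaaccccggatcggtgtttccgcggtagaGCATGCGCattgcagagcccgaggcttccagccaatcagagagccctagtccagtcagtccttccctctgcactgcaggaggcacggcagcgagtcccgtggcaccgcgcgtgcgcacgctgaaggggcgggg
Sdhb: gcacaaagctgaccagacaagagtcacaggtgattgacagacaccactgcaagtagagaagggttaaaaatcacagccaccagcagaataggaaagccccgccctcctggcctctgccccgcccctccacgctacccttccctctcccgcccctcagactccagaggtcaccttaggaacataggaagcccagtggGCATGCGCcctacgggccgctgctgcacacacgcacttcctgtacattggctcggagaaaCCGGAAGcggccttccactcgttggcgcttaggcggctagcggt
Sdha: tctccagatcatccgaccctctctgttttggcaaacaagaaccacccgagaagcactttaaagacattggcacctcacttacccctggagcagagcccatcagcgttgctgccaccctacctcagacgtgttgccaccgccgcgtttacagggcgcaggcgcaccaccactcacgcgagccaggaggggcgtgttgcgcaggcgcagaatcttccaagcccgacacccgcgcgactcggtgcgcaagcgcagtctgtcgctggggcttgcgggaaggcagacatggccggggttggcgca

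A window was matched for 68 of the 82 members. The NRF1 letters were in 10 of them (14.7%), beside 5.08% of the windows of 11537 genes tested, the YY1 letters in 10 (14.7%), beside 4.42%, and the ETS letters in 15 (22.1%), beside 17.0%. At least one of the 3 was in 30 windows (44.1%), beside 24.3%. Members that fell held the NRF1 letters in 1 of 25 windows, those that rose in 1 of 5 and those without a call in 8 of 38. The YY1 letters were in 4 of 25, 1 of 5 and 5 of 38, and the ETS letters in 5 of 25, 1 of 5 and 9 of 38. Each motif was present among genes that fell and among genes that rose. With only 5 windows of genes that rose, whether a motif goes with direction cannot be read from these counts. A match of letters is not a measured binding site.

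All 4 genes of complex II, the succinate dehydrogenase that also works in the TCA cycle, fell in APL, beside 37.3% of all genes tested. The median of the 4 was -0.55 (-0.42 without MP 3). Sdha, the flavin-binding catalytic subunit, had 8426, 8846 and 10270 scaled fragments in the MP libraries and 5059, 5719 and 5655 in APL (-0.74, SE 0.09, adjusted p = 0.000122). Sdhb went from 2199, 2526 and 3257 to 1588, 1716 and 1616 (-0.68, SE 0.13, adjusted p = 0.00149). The catalytic pair fell beyond 1.5-fold, and the highest APL library of each was below the lowest MP library. The membrane anchors changed less, Sdhd by -0.41 (adjusted p = 0.00482) and Sdhc by -0.32 (adjusted p = 0.0368), with no overlap in either. The call for Sdhc was lost when any 1 APL library was left out. All 4 genes still fell without MP 3, by 0.66, 0.52, 0.31 and 0.19 for Sdha, Sdhb, Sdhd and Sdhc. The FPKM ratio of Sdha to Sdhb was 1.23 ± 0.0992 in MPs and 1.17 ± 0.0731 in APL (SD, n = 3), which overlapped (exact permutation p = 0.5, adjusted p = 0.5). The summed FPKM of the complex was 496, 524 and 623 in MPs and 363, 396 and 385 in APL.

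In complex III, which passes electrons from ubiquinol to cytochrome c, 5 of 9 genes fell (55.6%, beside 37.3% of all genes) and none passed upward. The 5 include the assembly factor Uqcc, and the median of the 9 was -0.41 (-0.23 without MP 3). Uqcrc2, a core protein, had 6974, 7596 and 8896 scaled fragments in MPs and 4639, 4612 and 4614 in APL (-0.75, SE 0.09, adjusted p = 0.000106). The 3 APL values were almost the same, the log2 fold change was -0.66 without MP 3, and Uqcrc2 is one of 3 members that fell beyond 1.5-fold under every alternative but the threshold of 2-fold. It lies on chromosome 7 from 120635188 to 120670343, with Pdzd9 listed over part of the locus. Its partner Uqcrc1 had a log2 fold change of -0.26 (adjusted p = 0.0654), although its APL libraries, at 5587, 6652 and 6491, were all below MP libraries at 6923, 6899 and 8613. The Rieske iron-sulfur protein Uqcrfs1 fell by 0.37 (adjusted p = 0.0119), the hinge protein Uqcrh by 0.48 (adjusted p = 0.0142) and Uqcr10 by 0.41 (adjusted p = 0.0301). The call for Uqcrh was lost without APL 2, and that for Uqcr10 without APL 1 or APL 2. Uqcc, the assembly factor, went from 978, 986 and 1106 to 652, 651 and 683 (-0.63, SE 0.08, adjusted p = 0.000135). Uqcrq ran the other way, with 776, 770 and 1220 in MPs and 1066, 1235 and 1112 in APL (0.34, adjusted p = 0.109), and it rose in the fit without MP 3 (0.55, adjusted p = 0.000175). The heme subunit of the complex, Cyc1, is named outside the symbol rule and had a log2 fold change of -0.12 (adjusted p = 0.402).

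Complex IV, which hands electrons to oxygen, had the smallest number of falls, 2 of 15 (13.3%, beside 37.3% of all genes). It also had 2 rises (13.3%, beside 29.7%) and 11 genes with no call, and its median was -0.14 (-0.03 without MP 3). Cox4i1 and Cox5a, which join the complex early in its assembly, were without a call. Cox4i1, the common form of subunit 4, had 6753, 6784 and 9191 scaled fragments in MPs and 8087, 8704 and 8828 in APL, overlapping only through MP 3 (0.19, adjusted p = 0.205; 0.33 and adjusted p = 0.00133 without it). Cox5a had 4138, 4013 and 4972 in MPs and 3360, 3500 and 4216 in APL (-0.25, adjusted p = 0.0817), and Cox5b had a log2 fold change of -0.39 (adjusted p = 0.0627). The FPKM ratio of Cox4i1 to Cox5a was 1.49 ± 0.140 in MPs and 2.08 ± 0.156 in APL with no overlap (exact permutation p = 0.1, adjusted p = 0.15). Cox6c rose from 2355, 2080 and 3477 to 3341, 3539 and 4727 (0.57, SE 0.19, adjusted p = 0.0276), with a call that was lost without MP 1, MP 2 or APL 3 and groups that overlapped through MP 3.

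The isoforms of complex IV differ between tissues, and the forms of subunits 4, 6a and 7a known from lung, heart or muscle were low here. Cox4i2, the lung-enriched form that low oxygen induces, had 14.0, 11.4 and 14.4 scaled fragments in MPs and 4.71, 2.60 and 4.94 in APL (-1.52, SE 0.32, adjusted p = 0.00275), a fall at a level of 0.977 FPKM in MPs against 569 for Cox4i1. Cox7a1, the heart and muscle form, had 0.94, 4.76 and 4.51 in MPs and 4.71, 13.0 and 13.6 in APL (1.42, SE 0.54, adjusted p = 0.0449). Its groups overlapped, and the call was lost without MP 1, APL 2 or APL 3. Cox7a2, the common form, had 1535, 1540 and 2270 in MPs and 1760, 1763 and 1750 in APL (0.01, adjusted p = 0.973), with APL between MP 3 and the other MP libraries, and it rose in the fit without MP 3 (0.19, adjusted p = 0.0163). Cox7a2l, known for its part in respiratory supercomplexes, fell from 2903, 2741 and 3892 to 1988, 2224 and 2348 (-0.53, SE 0.13, adjusted p = 0.00643; -0.37 without MP 3). The FPKM ratio of Cox7a2 to Cox7a2l was 0.967 ± 0.0590 in MPs and 1.40 ± 0.116 in APL (exact permutation p = 0.1, adjusted p = 0.15). Cox6a1, with 441 FPKM in MPs and 508 in APL, and its muscle form Cox6a2, with 1.34 and 0.956, were without a call, but Cox6a1 rose in the fit without MP 3 (0.42, adjusted p = 0.000964). Cox6b1 had 2941 ± 866 scaled fragments in MPs and 2811 ± 273 in APL, with a log2 fold change of -0.03. The testis form Cox6b2 was not near 0, with 98.5 FPKM in MPs and 74.2 in APL and a log2 fold change of -0.38, and neither passed. How fragments that fit several gene copies were divided is not given in the sources used here, and values of such families and of their processed copies are uncertain to that extent.

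Complex V had the largest number of falls, 11 of 17 genes (64.7%, beside 37.3% of all genes), and none rose. The 11 include Atp5s, which is no subunit, and the median of the complex was -0.36 (-0.22 without MP 3). Atp5a1 (gene 11946), the alpha subunit of the catalytic head, had 29025, 29325 and 36402 scaled fragments in MPs and 11006, 12319 and 12416 in APL, so that the highest APL library was far below the lowest MP library. Its log2 fold change of -1.40 (SE 0.11, adjusted p = 6.86e-06), a 2.64-fold fall, was the largest of the abundant members, and it was -1.29 without MP 3 and between -1.53 and -1.23 over all alternatives. Its partner in the head, Atp5b, had the highest fragment values of all members, 36111, 37787 and 48052 in MPs and 29678, 32177 and 32060 in APL (-0.37, SE 0.13, adjusted p = 0.0348; -0.24 without MP 3), and the call was lost when any 1 APL library was left out. The assembled head holds both proteins in equal number. The FPKM ratio of Atp5a1 to Atp5b was 0.638, 0.604 and 0.604 in MPs and 0.287, 0.296 and 0.301 in APL, with little spread inside either group (exact permutation p = 0.1, adjusted p = 0.15). For Atp5c1, of the central stalk, the ratio to Atp5b was 0.318 ± 0.0100 in MPs and 0.306 ± 0.0219 in APL (exact permutation p = 0.5, adjusted p = 0.5).

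**Figure D4:**
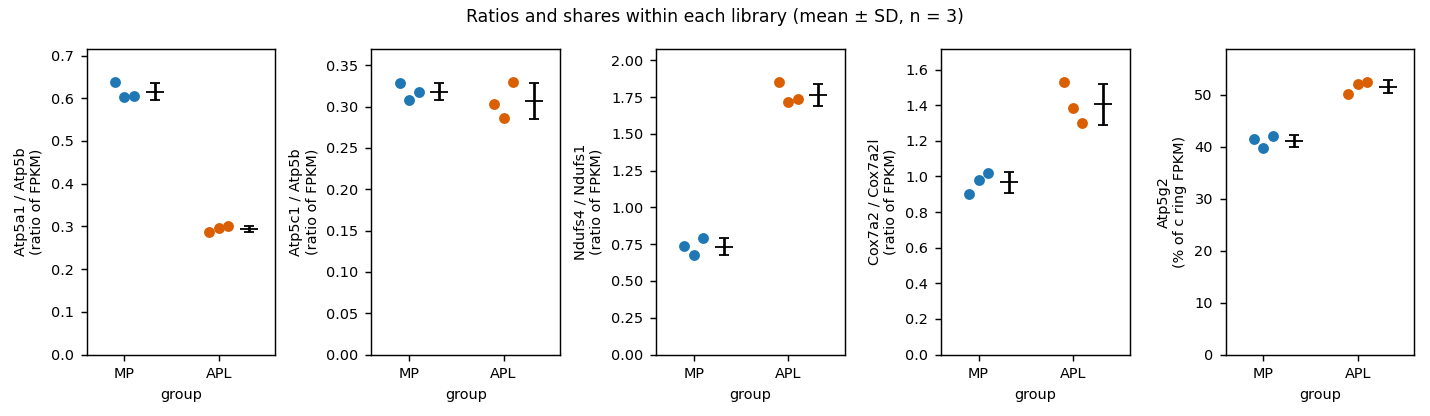
Ratios of FPKM within each library for 4 gene pairs and the share of Atp5g2 in the FPKM of the c ring genes (vertical axes, from 0), with a point per library and the mean ± SD of 3 libraries at the right of each group. Atp5a1 to Atp5b moves from 0.615 in MPs to 0.295 in APL, while Atp5c1 to Atp5b overlaps between groups.

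No other gene of the head and stalks fell as far. Atp5d fell from 2549, 2651 and 3881 to 1684, 2037 and 2127 (-0.62, SE 0.16, adjusted p = 0.00813; -0.42 without MP 3) and Atp5c1 by 0.42 (adjusted p = 0.0106), and Atp5e, also of the central stalk, had a log2 fold change of -0.08 (adjusted p = 0.655). In the peripheral stalk Atp5o fell by 0.59 (adjusted p = 0.00106), Atp5f1 by 0.34 (adjusted p = 0.0169) and Atp5h by 0.28 (adjusted p = 0.0244), both of these lost without APL 1 or APL 2, and Atp5j did not pass (-0.19, adjusted p = 0.264). The proton-carrying c ring is encoded by 3 genes whose mature proteins are the same. Atp5g1 fell by 0.56 (adjusted p = 0.00291) and Atp5g3 by 0.37 (adjusted p = 0.0261, lost without APL 1 or APL 2), and Atp5g2 had a log2 fold change of 0.16 (adjusted p = 0.341). Of the summed FPKM of these 3, Atp5g2 held 41.2% ± 1.15 in MPs and 51.6% ± 1.19 in APL, Atp5g1 21.1% ± 0.169 and 15.5% ± 0.314, and Atp5g3 37.8% ± 1.29 and 32.9% ± 0.984 (SD, n = 3). Atp5s, no subunit but a factor tied to the synthase by name, went from 244, 238 and 299 to 153, 145 and 142 (-0.82, SE 0.14, adjusted p = 0.000625). Atp5k varied widely between replicates, with 276, 259 and 1027 scaled fragments in MPs and 255, 275 and 607 in APL, both groups high in library 3 (-0.26, adjusted p = 0.677).

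The members that rose were unevenly placed in the genome. This was noticed after the values were seen and is given as a description. Of the 81 members, 7 lie on chromosomes 8 and 15, and all 7 had positive log2 fold changes, 0.19 for Cox4i1, 0.32 for Ndufa13 and 0.57 for Ndufb7 on chromosome 8 and 0.16 for Atp5g2, 0.46 for Ndufb9, 0.57 for Cox6c and 0.59 for Ndufa6 on chromosome 15. Of these, 4 rose with all libraries (57.1%), beside 58.2% of all genes tested on these chromosomes. Without MP 3 all 7 rose, beside 64.8% of the 1309 genes of these chromosomes tested in that fit. Among the 74 members elsewhere 31 fell and 3 rose (Ndufs4, Ndufa1 and Cox7a1), with a median of -0.29 against 0.46 for the 7 (-0.15 and 0.62 without MP 3). Genes of these 2 chromosomes were high as a whole, with a median of 0.47 over the 1341 tested against -0.15 over the 13254 on other chromosomes.

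Genes that build, feed or regulate the complexes were described from lists of known function. Of 12 assembly factors of complex I, 7 fell and none rose, with Ndufaf1 from 367, 359 and 373 scaled fragments to 240, 242 and 228 (-0.63, adjusted p = 0.000475). For complexes II to III, 2 of 6 fell and none rose. For complex IV, 8 of 15 fell and 2 rose, led by the copper chaperone Cox11 (-0.85, adjusted p = 0.000154). Of 5 assembly factors and regulators of complex V, 3 fell and none rose, and Atpif1, the inhibitor of ATP hydrolysis by the synthase, went from 4432, 4478 and 6672 to 2457, 2564 and 2884 (-0.95, SE 0.15, adjusted p = 0.000508).

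Among 17 mobile carriers and enzymes that feed ubiquinone, 9 fell and 3 rose. Cytochrome c (Cycs) fell by 0.43 (adjusted p = 0.0019) and Coq4, of ubiquinone synthesis, by 0.67 (adjusted p = 0.00101). Sqrdl, which oxidises sulfide and passes the electrons to ubiquinone, rose from 498, 439 and 529 to 2084, 2416 and 2455 (2.24, SE 0.10, adjusted p = 1.71e-07). Of 17 regulators of mitochondrial gene expression and biogenesis, 11 fell and 1 rose. Tfam, which packages and transcribes mitochondrial DNA, fell from 1991, 2107 and 2168 to 1156, 1034 and 1064 (-0.95, SE 0.07, adjusted p = 5.31e-06). The coactivator Ppargc1a was the rise (adjusted p = 3.13e-05), at a low level. With the scaling undone by the inferred step, it had 3, 3 and 2 fragments in MPs and 33, 25 and 27 in APL. The ratio, corrected for depth, was 12.2 (exact 95% interval 5.91 to 29.1, for counting error only).

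In the TCA cycle and pyruvate dehydrogenase, 14 of 18 genes fell and 2 rose, with a median of -0.39, and Idh3b fell most (-0.79, adjusted p = 0.000168). Of 3 pyruvate dehydrogenase kinases tested 2 fell, with Pdk1 at -0.70 (adjusted p = 2.2e-05). Of 6 carriers of adenine nucleotides, phosphate and the outer membrane 2 fell and 1 rose, with Vdac1 at -0.61 (adjusted p = 0.000919) and the ADP/ATP carrier Slc25a4 at 0.49 (adjusted p = 0.0253, lost without MP 1, MP 2, APL 2 or APL 3). The list with the lowest median of those with more than 5 genes was protein import and inner membrane organisation, at -0.55, where 12 of 15 fell and 1 rose, and the chaperonin partner Hspe1 went from 4571, 4817 and 5995 to 2047, 1885 and 2345 (-1.29, SE 0.12, adjusted p = 1.52e-05). The background for these counts is the 37.3% of all genes tested that fell and the 29.7% that rose. Without MP 3 the falls and the rises in each of these lists differed by at most 1 gene from the counts given, and the median of the carriers of adenine nucleotides and phosphate went from -0.05 to 0.05.

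**Figure D5:**
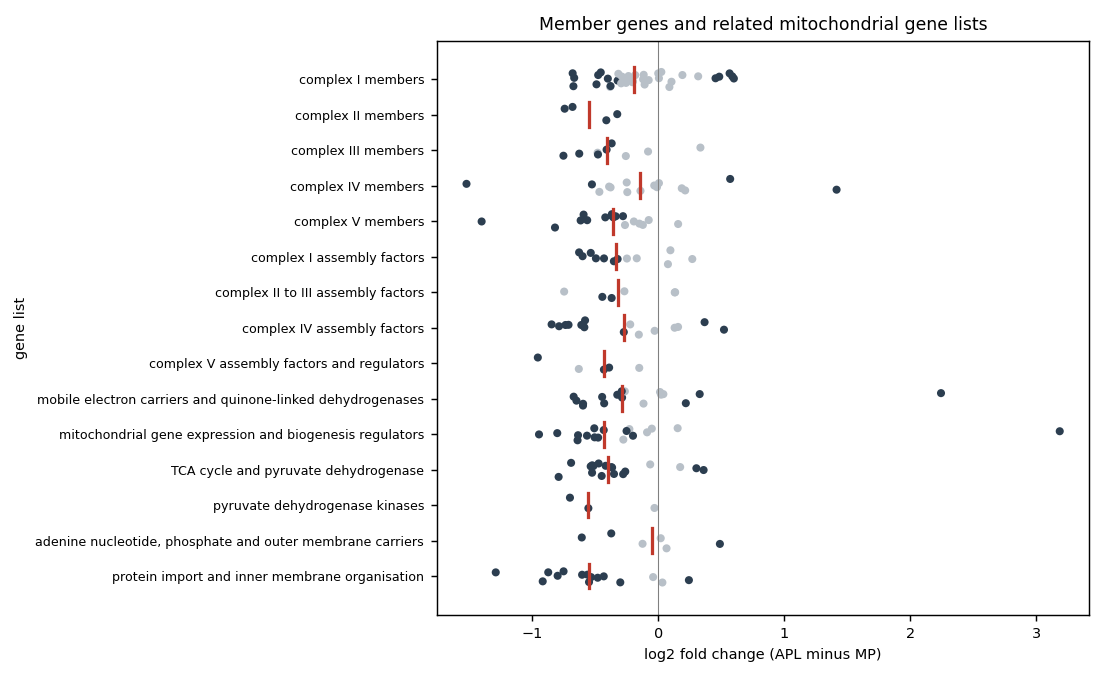
Log2 fold change (horizontal axis, APL minus MP) of each tested gene in the 5 complexes and the related mitochondrial lists, dark where adjusted p was under 0.05, with the median of each list as a red line. The medians lie between -0.55 and -0.05, and Sqrdl (2.24) and Ppargc1a stand at the far right.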

How the data were processed

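RNA-seq libraries of 3 MP and 3 APL samples were prepared with TruSeq from total RNA. The labels' processing notes name CASAVA 1.8, TopHat2 2.0.6 and mm10, whereas the paper's methods name STAR on mm9, HTSeq-count and DESeq2, and the tool that made the table is not given in the sources used here. The authors deposited FPKM values, which are per length of transcript and per depth of library. The deposited fragment signal is an estimate of fragments per gene that the authors scaled by a factor per library. Each library was divided by its most frequent low value, taken as the step of its scaling. This gave whole numbers (within 0.02) for between 85.3% and 88.0% of nonzero values, so no count test was run. Loci follow GRCm38.

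Genes with at least 1 scaled fragment in at least 3 libraries entered limma 3.58.1 under R 4.3.3 (lmFit and trended eBayes) after a log2 transform with a pseudocount of 1. The fit was also tested on simulated data that had no length trend, so that test does not cover the deviation of MP 3. The adjusted p threshold was 0.05 and the fold threshold 1.5. Ratios used FPKM. Replicate numbers were not used as a block. The values of 1 core gene of complex I are not reported here and are left out of the plots by gene, but it is in the counts and medians. Named members were the 3 largest falls and rises of each complex past the threshold, core subunits and isoform groups, and of each list the largest change past 1.5-fold; Ndufa13, Ndufb9, Ndufa1, Ndufa9, Ndufc2, Uqcr10, Uqcrq, Atp5o, Atp5f1, Atp5h, Atp5j, Atp5k, Atp5e, Cycs, Cyc1 and Slc25a4 were named after their values were seen. The members, gene lists, motifs and tests were chosen with earlier results of these data known. Alternatives covered pseudocounts, filters, FPKM, scalings, voom weights, a replicate block and each library left out. Locus overlaps with another gene were present for 10 members. Intervals and floors cover counting error only. Figures were drawn with matplotlib 3.10.9.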

Additional observations from a re-analysis of the deposited data

How the results depend on the processing

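With the 1.5-fold threshold, 12 members fell and 3 rose. The counts were 19 and 0 scaled to the same total, 19 and 0 with voom weights, 9 and 5 with median ratio scaling, 12 and 1 with quantile normalization, 10 and 5 for FPKM with pseudocount 0.1, 2 and 1 at a threshold of 2-fold, 6 and 5 with the length trend removed, and 9 and 5 without both libraries numbered 3, and the last 2 were chosen after the data were seen. At any size, 31 fell and 7 rose, against 50 and 5 scaled to the same total, 50 and 6 with voom weights, 31 and 11 with median ratio scaling, 41 and 15 with the length trend removed and 30 and 13 without both libraries numbered 3. The median of all genes, -0.10, was -0.23 scaled to the same total and 0.09 with the length trend removed. Of the related list genes, 27 fell and 2 rose beyond 1.5-fold, against 46 falls scaled to the same total and 46 with voom, 17 with median ratio scaling, 1 at 2-fold and 12 with the length trend removed, and against 1 rise in FPKM with pseudocount 1 and 4 without both libraries numbered 3.

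With single libraries dropped in turn, falls beyond 1.5-fold numbered 6 to 15 and rises 0 to 7, and at any size 20 to 36 members fell and 4 to 15 rose. The 6 falls and the 7 and 15 rises were without MP 3, the 20 falls without APL 1, the 0 rises without MP 1, 1 rise each without MP 2 or APL 3, and the 4 rises without MP 1 or APL 3. List genes gave up to 4 rises, without MP 3. The median of complex I, -0.192, ran from -0.293 without MP 1 to 0.021 without MP 3. Genes near 0 changed sign. Cox6b1 was at 0.0149 and 0.015 in FPKM with pseudocounts 1 and 0.1, 0.0312 with median ratio scaling, 0.0356 with the length trend removed, 0.122 without both libraries numbered 3, and from -0.168 to 0.198 with 1 library left out. Atp5k was at 0.0078 and 0.00788 in the same FPKM fits and from -0.662 to 0.382 with 1 library left out. Atp5e was at 0.0217 in both FPKM fits, 0.0331 without both libraries numbered 3, and from -0.191 to 0.0956. Cox7a2 was at -0.0133 with quantile normalization, -0.125 scaled to the same total, -0.127 with voom, and from -0.0887 to 0.193. Cyc1 was at 0.0102 without both libraries numbered 3 and from -0.196 to 0.0175, and Cox6a2 at 0.256 with quantile normalization. The cause of these shifts was not tested.

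Libraries with the same number correlated in their deviations by 0.21, -0.07 and 0.22 over 10389 genes, so the numbers were not taken as a pairing, and MP 2 correlated best with APL 1. Over the 81 members alone, however, same-numbered libraries correlated by 0.75, 0.58 and 0.63, a hint of pairing from the data and not from the design. Every other pair of libraries was negative (-0.20 to -0.48). Deviations from a group mean cancel within the group, so these negative values follow in part from the positive ones and add little to the hint. With the replicate number as a block 42 members fell and 8 rose, 12 and 3 beyond 1.5-fold.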
